A study of Mus musculus with 13 samples.

Results

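Junction genes of the blood vessel wall were followed in mouse brain, 9 in all: Cldn5, Cdh5, Esam, Pecam1, Ocln, Tjp1, F11r, Jam2 and Marveld2. They were chosen by symbol from a count table of 55416 genes, in which all 9 were found. All 9 were also among the 22507 genes that passed a filter on low counts. Messenger RNA of whole brains was sequenced in 13 libraries that fall into 4 groups. Knockout mice (KO; Slco1c1-iCreERT2;Pdcd10fl/fl, named Pdcd10BECKO) carried a tamoxifen-inducible Cre recombinase driven by the Slco1c1 promoter, which is active in brain endothelium, and loxP-flanked Pdcd10, also called Ccm3. Littermate controls (flox; Pdcd10fl/fl) carried the same flanked alleles without that Cre. The groups were KO in hypoxia (n = 4), flox in hypoxia (n = 3), KO in normoxia (n = 3) and flox in normoxia (n = 3). Hypoxia was 12% oxygen for 7 days and normoxia 21% oxygen. The inducer was 50 μg of 4-hydroxy-tamoxifen given into the stomach on postnatal day 1. Age at harvest is not given in the sources used here, nor is it stated for each library whether the control was injected or came from an uninjected Cre carrier, a second kind of control that the design text mentions.

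Neighbouring endothelial cells are joined by tight junctions, in which claudins, occludin and the JAM proteins span the membrane and ZO scaffold proteins anchor them to actin, and by adherens junctions built on VE-cadherin. In the brain these junctions are tight enough to form part of the blood-brain barrier, and claudin-5 is its main claudin. Loss of Ccm3 in endothelium causes cerebral cavernous malformations, clusters of enlarged and leaky vessels. The 9 genes were split by textbook cell distribution. The 4 endothelial-restricted genes were Cldn5, Cdh5, Esam and Pecam1, of which Esam is also found on platelets and Pecam1 on platelets and leukocytes. The 5 broadly expressed genes were Ocln, Tjp1, F11r, Jam2 and Marveld2, which epithelia, glia or other cells also make.

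Libraries held between 42090437 and 71216636 counts. Pdcd10 itself averaged 16.4 ± 1.09 CPM in KO hypoxia and 17.4 ± 0.194 in flox hypoxia, and 16.9 ± 1.07 in KO normoxia and 17.1 ± 0.799 in flox normoxia (mean ± SD; CPM, counts scaled to library totals adjusted by TMM). Whole tissue therefore does not check a deletion limited to endothelium. All mice are labelled male, but 4 of the 13 libraries held Xist, with at least 25181 counts against at most 25 in the others: replicates 3 and 4 of KO hypoxia, replicate 3 of KO normoxia and replicate 3 of flox normoxia. KO normoxia replicate 2 stood apart in choroid plexus epithelium, whose 9 markers summed to 12.4 CPM there and to between 319.7 and 535.9 CPM in every other library. KO hypoxia replicate 1 stood apart in blood transcripts, with 5 erythroid markers at 17390 CPM against 3408 to 4164 CPM in the other KO hypoxia libraries.

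Per unit of gene length, Cldn5 and Tjp1 were the most abundant of the 9. In flox normoxia brains the mean RPKM (counts scaled to the library total and to gene length, as deposited) was 15.01 ± 0.362 for Tjp1, 14.8 ± 2.50 for Cldn5, 7.80 ± 1.03 for Jam2, 3.74 ± 0.141 for Esam and 2.91 ± 0.177 for Cdh5 (SD, n = 3). F11r followed at 2.43 ± 0.446 RPKM, Pecam1 at 2.10 ± 0.212, Ocln at 1.74 ± 0.0433 and Marveld2 at 0.329 ± 0.0307. In this order Tjp1 and Cldn5 overlapped between libraries, as did F11r and Pecam1, and every other pair of neighbours was apart. In KO hypoxia brains Cldn5 stood alone at 49.4 ± 9.34 RPKM, ahead of Tjp1 at 16.9 ± 0.962, and Esam (10.8 ± 1.81), Jam2 (9.40 ± 0.526), Cdh5 (9.24 ± 2.22) and Pecam1 (8.45 ± 1.92) formed a run of overlapping neighbours (SD, n = 4). Between the highest and the lowest of the 13 libraries, Pecam1 RPKM differed 6.02-fold, Cldn5 5.16-fold, Cdh5 4.42-fold and Esam 3.72-fold. Among the broadly expressed genes the same range was 3.38-fold for F11r, 2.36-fold for Marveld2, 1.75-fold for Ocln, 1.53-fold for Jam2 and 1.25-fold for Tjp1.

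**Figure D1:**
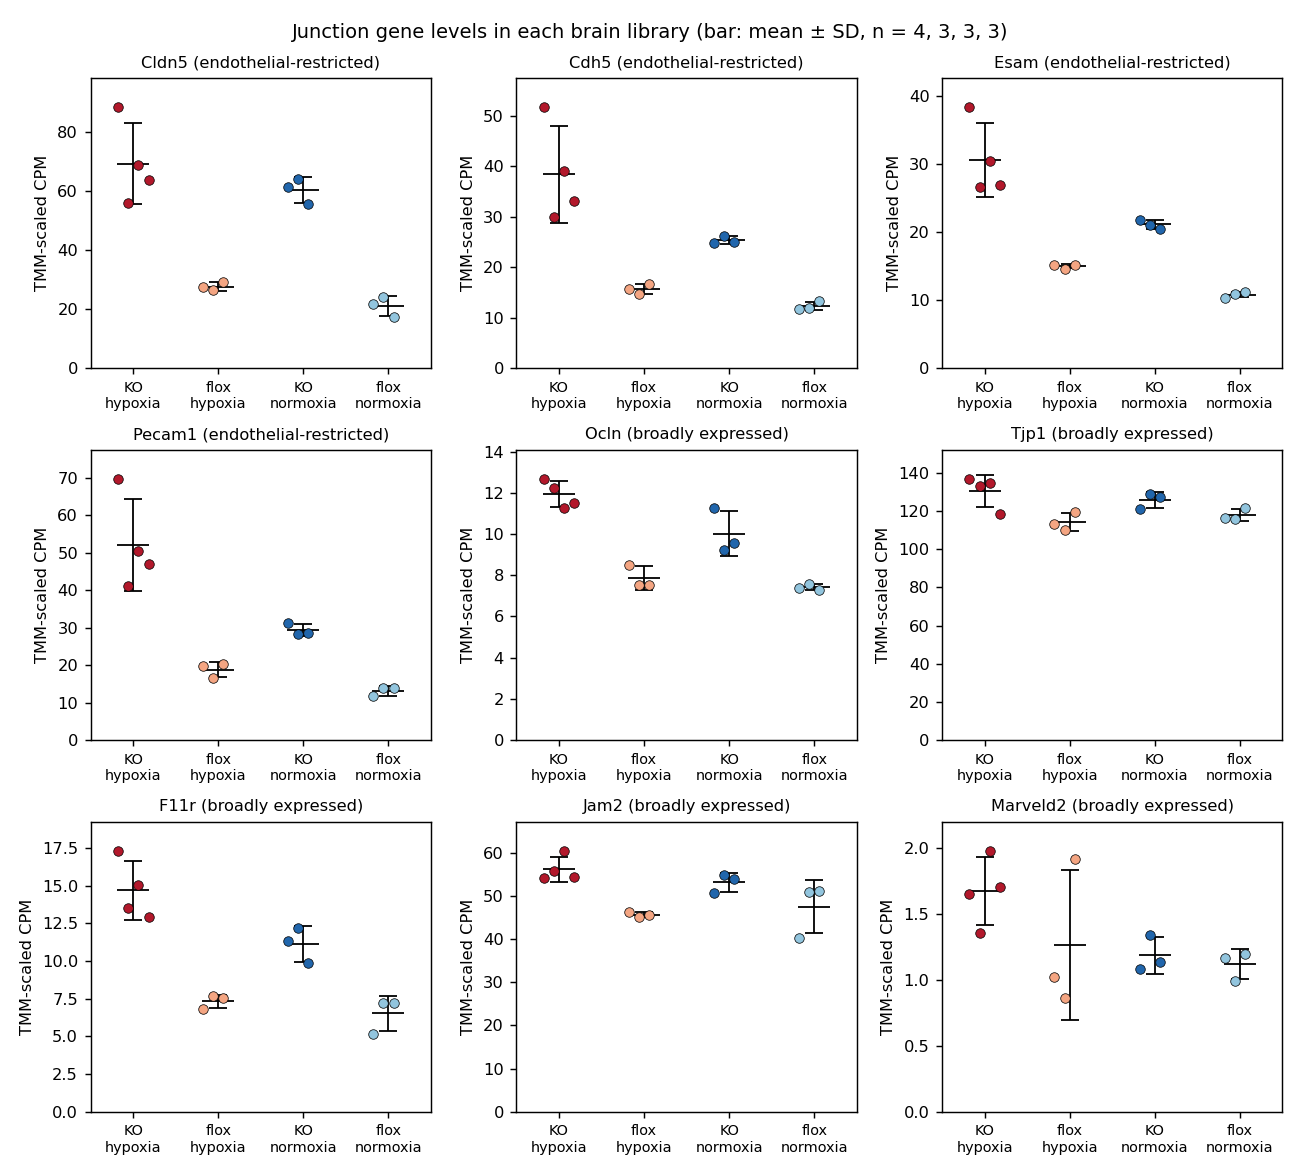
TMM-scaled CPM (vertical axis, from 0) of each junction gene in each library, with 1 panel per gene and the groups KO hypoxia (n = 4), flox hypoxia, KO normoxia and flox normoxia (n = 3 each) along the horizontal axis; points are libraries and bars the mean ± SD. Cldn5, Cdh5, Esam and Pecam1 lie higher in every KO library than in any flox library at the same oxygen level, while the Tjp1 libraries lie between 110 and 137 CPM in all groups.

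The comparison of KO with flox brains asked how these genes stood after endothelial loss of Ccm3. All 4 endothelial-restricted genes rose in KO brains at both oxygen levels, with log2 fold changes between 0.97 (Esam in normoxia) and 1.52 (Cldn5 in normoxia). Of the 5 broadly expressed genes, 2 rose in normoxia (Ocln and F11r) and 4 in hypoxia (Ocln, F11r, Tjp1 and Jam2), and Marveld2 passed in neither. In normoxia 6 of the 9 were called higher and none lower at an adjusted p below 0.05 (edgeR quasi-likelihood test, Benjamini-Hochberg adjustment over all genes tested), where 1.96% of all genes tested were called higher and 0.369% lower. In hypoxia 8 of 9 were called higher and none lower, against 6.78% higher and 2.28% lower among all genes (1526 genes higher and 513 lower, or 1746 and 243 when libraries were scaled by their totals alone). The median log2 fold change of the restricted genes was 1.10 in normoxia and 1.31 in hypoxia, and that of the broadly expressed genes 0.16 and 0.42, with all genes tested at -0.0036 and -0.0092. The libraries did not overlap, with KO higher, for 6 of 9 genes in normoxia (10.5% of all genes) and for 7 of 9 in hypoxia (11.5% of all genes). These are values of whole tissue, in which more cells of a type and more RNA per cell cannot be told apart.

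Cldn5 (ENSMUSG00000041378), which makes the claudin that dominates brain endothelial tight junctions, was at 88.2, 56.0, 68.8 and 63.7 CPM in KO hypoxia libraries, against 27.3, 26.3 and 29.1 CPM in flox hypoxia. In normoxia it was at 61.1, 64.0 and 55.6 CPM in KO and at 21.8, 24.0 and 17.2 CPM in flox. Every KO library was above every flox library of its oxygen level, and the lowest flox normoxia library was replicate 3, which held Xist. The log2 fold change was 1.33 ± 0.13 in hypoxia (SE; adjusted p = 1.9e-05 by edgeR) and 1.52 ± 0.14 in normoxia (adjusted p = 3.9e-05 by edgeR).

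Cdh5 (ENSMUSG00000031871) encodes VE-cadherin, the adhesion receptor of endothelial adherens junctions. Its levels were 51.7, 29.9, 39.0 and 33.1 CPM in KO hypoxia libraries, against 15.6, 14.8 and 16.7 CPM in flox hypoxia. In normoxia they were 24.8, 26.3 and 24.99 CPM in KO, against 11.8, 12.0 and 13.2 CPM in flox. The KO libraries were above every flox library of their oxygen level, by a log2 fold change of 1.30 ± 0.14 in hypoxia (adjusted p = 3.5e-05 by edgeR) and 1.04 ± 0.15 in normoxia (adjusted p = 0.00102 by edgeR). In KO hypoxia the libraries spread widely and replicate 1 was the highest.

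Pecam1 (ENSMUSG00000020717), an immunoglobulin-family adhesion molecule of the endothelial cell border, was at 69.7, 41.1, 50.5 and 47.0 CPM in KO hypoxia and at 19.7, 16.5 and 20.2 CPM in flox hypoxia. In normoxia it was at 31.1, 28.3 and 28.6 CPM in KO and at 11.7, 13.9 and 13.9 CPM in flox. No library of 1 genotype reached the other's range. Its log2 fold change was 1.47 ± 0.14 in hypoxia (adjusted p = 1.5e-05 by edgeR) and 1.16 ± 0.15 in normoxia (adjusted p = 0.00053 by edgeR). Esam (ENSMUSG00000001946), a related adhesion molecule of endothelial tight junctions, was at 38.3, 26.5, 30.4 and 26.9 CPM in KO hypoxia and at 15.2, 14.6 and 15.1 CPM in flox hypoxia. In normoxia Esam was at 21.8, 21.0 and 20.5 CPM in KO and at 10.4, 10.8 and 11.2 CPM in flox. The groups were again apart, with log2 fold changes of 1.03 ± 0.10 in hypoxia (adjusted p = 2.0e-05 by edgeR) and 0.97 ± 0.11 in normoxia (adjusted p = 0.00017 by edgeR).

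By CPM, KO hypoxia replicate 1 was the highest KO hypoxia library for all 4 restricted genes and for F11r, Ocln and Tjp1, of which Tjp1 lost its hypoxia call without it (adjusted p = 0.0627 by edgeR). Without it, the log2 fold changes in hypoxia were 1.19 for Cldn5, 1.12 for Cdh5, 0.90 for Esam and 1.30 for Pecam1, and all 4 stayed called. Platelet markers (6 genes) summed to 4.63 to 12.2 CPM in KO hypoxia and 3.20 to 3.99 CPM in flox hypoxia, and to 4.48 to 5.23 CPM in KO normoxia and 3.70 to 4.63 CPM in flox normoxia. Leukocyte markers (6 genes) summed to 20.9 to 47.9 CPM in KO hypoxia and 12.5 to 14.4 CPM in flox hypoxia, and to 18.2 to 19.2 CPM in KO normoxia and 12.3 to 14.7 CPM in flox normoxia. The part of platelets and leukocytes in the Pecam1, Esam and F11r values was not tested.

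Among the broadly expressed genes, F11r (ENSMUSG00000038235), which encodes JAM-A, moved most. It was at 17.3, 13.5, 15.02 and 12.9 CPM in KO hypoxia and at 6.83, 7.65 and 7.53 CPM in flox hypoxia, and at 11.3, 12.2 and 9.86 CPM in KO normoxia and 5.15, 7.19 and 7.21 CPM in flox normoxia. No KO library came down to a flox library of its oxygen level. F11r rose by a log2 fold change of 1.00 ± 0.13 in hypoxia (adjusted p = 0.00013 by edgeR) and 0.77 ± 0.13 in normoxia (adjusted p = 0.0053 by edgeR). Ocln (ENSMUSG00000021638), which encodes occludin, was at 12.7, 12.2, 11.3 and 11.5 CPM in KO hypoxia and at 8.51, 7.54 and 7.50 CPM in flox hypoxia. In normoxia Ocln was at 11.2, 9.24 and 9.57 CPM in KO and at 7.38, 7.56 and 7.29 CPM in flox. The genotypes were apart at both oxygen levels, at a log2 fold change of 0.60 ± 0.08 in hypoxia (adjusted p = 0.0003 by edgeR) and 0.43 ± 0.09 in normoxia (adjusted p = 0.0161 by edgeR). The normoxia call of Ocln was lost without flox normoxia replicate 1 or 3 or without KO normoxia replicate 1 (adjusted p = 0.064, 0.0576 and 0.0929 by edgeR), without the 4 libraries that held Xist (adjusted p = 0.106 by edgeR) and on log2(RPKM + 1) (adjusted p = 0.0555 by limma).

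Tjp1 (ENSMUSG00000030516), the ZO-1 scaffold protein found at junctions of most cell types, was the most even of the 9. Its levels were 137, 133, 135 and 118 CPM in KO hypoxia and 113, 110 and 119 CPM in flox hypoxia, with an overlap between KO replicate 4 and flox replicate 3. In normoxia they were 121, 129 and 127 CPM in KO and 116, 116 and 122 CPM in flox, again overlapping. Tjp1 passed in hypoxia at a log2 fold change of 0.19 ± 0.05 (adjusted p = 0.0218 by edgeR), and the call was lost without flox hypoxia replicate 1 or 2 or without KO hypoxia replicate 1 or 3 (adjusted p = 0.086, 0.124, 0.0627 and 0.059 by edgeR). In normoxia its log2 fold change was 0.09, with a 95% interval of -0.02 to 0.21 (adjusted p = 0.488 by edgeR).

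Jam2 (ENSMUSG00000053062), which encodes JAM-B, was at 54.0, 55.7, 60.4 and 54.4 CPM in KO hypoxia and at 46.3, 45.1 and 45.5 CPM in flox hypoxia. These groups were apart, at a log2 fold change of 0.30 ± 0.07 (adjusted p = 0.014 by edgeR). In normoxia Jam2 was at 50.5, 54.9 and 53.8 CPM in KO and at 40.3, 50.9 and 51.2 CPM in flox, where the groups overlapped (log2 fold change 0.16, 95% interval 0.0019 to 0.32, adjusted p = 0.361 by edgeR). The hypoxia call of Jam2 was lost without flox hypoxia replicate 2 or 3 (adjusted p = 0.0678 and 0.0527 by edgeR), without the 4 libraries that held Xist (adjusted p = 0.0752 by edgeR) and with a sex term (adjusted p = 0.0514 by edgeR). Marveld2 (ENSMUSG00000021636), which encodes tricellulin of the 3-cell contacts of epithelia, was near the bottom of the range, with 40 to 136 counts per library. It was at 1.65, 1.35, 1.97 and 1.70 CPM in KO hypoxia and at 1.02, 0.857 and 1.91 CPM in flox hypoxia, and at 1.08, 1.34 and 1.13 CPM in KO normoxia and 1.17, 0.992 and 1.20 CPM in flox normoxia. Both pairs of groups overlapped, with 95% intervals of the log2 fold change of -0.09 to 0.92 in hypoxia (adjusted p = 0.325 by edgeR) and -0.45 to 0.63 in normoxia (adjusted p = 0.931 by edgeR). A single flox hypoxia library, replicate 3, held 80 counts where the other two held 40 and 53, and without it Marveld2 was called in hypoxia (log2 fold change 0.83, adjusted p = 0.0309 by edgeR).

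**Figure D2:**
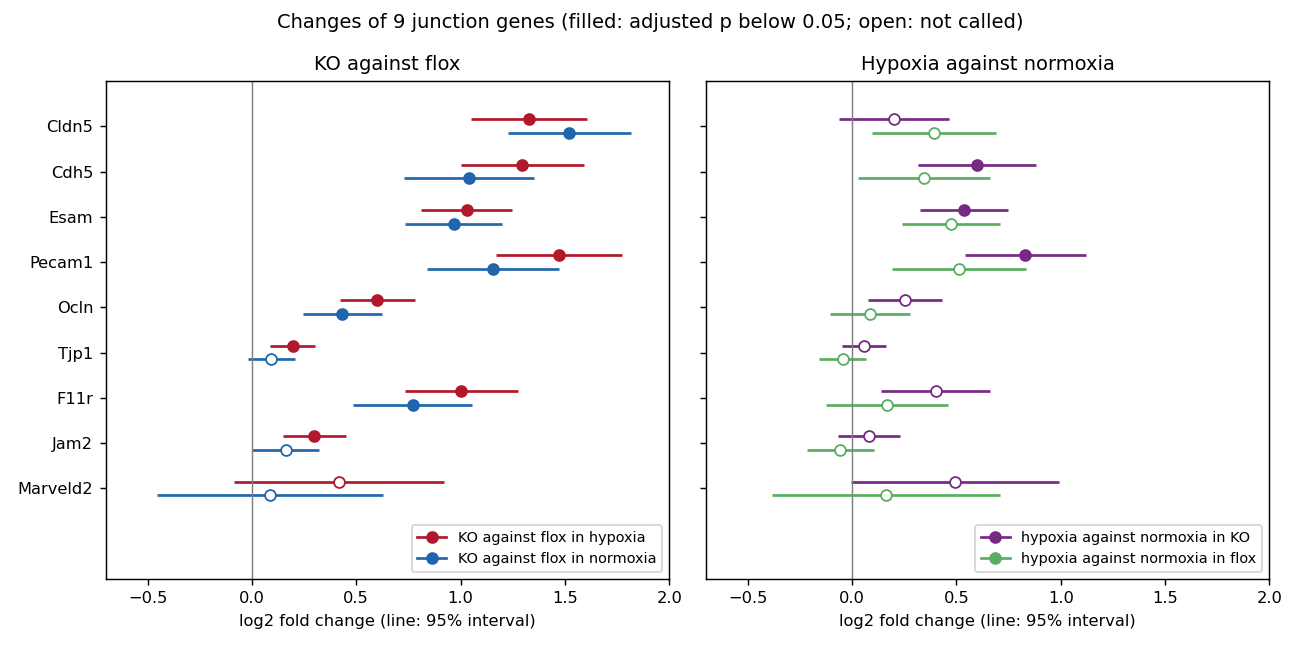
Log2 fold change (horizontal axis) of each junction gene in 4 contrasts, with KO against flox in the left panel and hypoxia against normoxia in the right; lines are 95% intervals, filled points have an adjusted p below 0.05 and open points do not. The restricted genes sit between 0.97 and 1.52 in both KO contrasts, and Cdh5, Esam and Pecam1 in KO mice have the only filled points in the right panel.

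The promoter windows of Cldn5 and Tjp1 are shown because these were, per length, the most abundant junction genes in the controls and yet differed in how far they moved. RefSeq windows were at hand for 5 of the 9 genes (Cldn5, Ocln, Tjp1, F11r and Marveld2). Each sequence is the 250 bases before the RefSeq gene start on GRCm38.p6, read on the gene's strand, and capitals mark matches on either strand to 6 short motifs: an ETS-type core with its flank, CGGAAG; the GC box, GGGCGG; the Krüppel-type box, CACCC; an E-box, CAGCTG; the box named for its letters, CCAAT; and the TATA box, TATAAA. The Cldn5 window is chr16:18776597-18776846 (+ strand) and the Tjp1 window chr7:65371245-65371494 (- strand).
Cldn5: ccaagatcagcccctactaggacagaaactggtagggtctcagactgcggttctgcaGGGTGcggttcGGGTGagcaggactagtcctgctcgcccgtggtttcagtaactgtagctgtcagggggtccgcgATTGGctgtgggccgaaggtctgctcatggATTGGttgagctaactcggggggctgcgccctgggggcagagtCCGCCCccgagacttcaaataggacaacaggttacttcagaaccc
Tjp1: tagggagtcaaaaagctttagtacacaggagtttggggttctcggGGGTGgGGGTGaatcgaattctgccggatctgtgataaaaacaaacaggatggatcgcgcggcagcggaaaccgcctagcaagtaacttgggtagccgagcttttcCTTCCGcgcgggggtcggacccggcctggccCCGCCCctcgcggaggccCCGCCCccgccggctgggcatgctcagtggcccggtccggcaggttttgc
The Cldn5 window held 2 matches each to the Krüppel-type box and to CCAAT and 1 GC box, with 59.6% G+C and 12 CpG dinucleotides. The Tjp1 window held 2 Krüppel-type boxes, 2 GC boxes and 1 ETS-type core, with 63.2% G+C and 22 CpG. No marked match overlapped another. Over 32851 windows of the same length, 52.0% held the Krüppel-type box, 33.8% CCAAT, 32.7% the GC box, 13.6% the ETS-type core, 13% the E-box and 12.4% the TATA box, and the medians were 52.4% G+C and 6 CpG. These matches describe letters in the windows and were not set against the expression values.

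The comparison of hypoxia with normoxia within each genotype asked what 7 days of low oxygen did to the same genes. In KO brains Cdh5, Esam and Pecam1 rose, Cldn5 did not pass, and none of the broadly expressed genes passed. That is 3 of 9 called higher and none lower, against 0.622% of all genes called higher and 0.275% lower (140 and 62 genes, or 214 and 31 when libraries were scaled by their totals alone). This contrast shares the KO hypoxia libraries with that of KO against flox in hypoxia. The libraries of 6 of the 9 genes did not overlap, with hypoxia higher (6.59% of all genes): Cdh5, Esam, Pecam1, Ocln, F11r and Marveld2. From the levels given above, the log2 fold change of hypoxia over normoxia was 0.83 ± 0.14 for Pecam1 (adjusted p = 0.0154 by edgeR), 0.54 ± 0.10 for Esam (adjusted p = 0.0282 by edgeR) and 0.60 ± 0.13 for Cdh5 (adjusted p = 0.0469 by edgeR). All 3 calls were lost without any 1 of the KO normoxia replicates (adjusted p = 0.0536 to 0.164 by edgeR), while the log2 fold changes stayed between 0.51 and 0.87. The call of Cdh5 was also lost without each of 6 other single libraries.

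In the same mice Cldn5 overlapped between hypoxia (56.0 to 88.2 CPM) and normoxia (55.6 to 64.0 CPM), at a log2 fold change of 0.20 with a 95% interval of -0.06 to 0.46 (adjusted p = 0.51 by edgeR). Ocln (0.25 ± 0.08, adjusted p = 0.159 by edgeR), F11r (0.40 ± 0.12, adjusted p = 0.132) and Marveld2 (0.49 ± 0.23, adjusted p = 0.36) were not called. DESeq2 called F11r (adjusted p = 0.0412), as did edgeR with no filter (adjusted p = 0.02). Tjp1 and Jam2 stood at 0.06 and 0.08, with 95% intervals of -0.05 to 0.16 and -0.07 to 0.23.

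In flox brains no junction gene was called in hypoxia, where 0.0222% of all genes were called higher and 0% lower. Of the 9, 4 had an unadjusted p below 0.05 by edgeR (6.65% of all genes in either direction), and these were the restricted genes, whose libraries also did not overlap with hypoxia higher (4 of 9, against 6.56% of all genes). Their log2 fold changes were 0.51 ± 0.15 for Pecam1 (adjusted p = 0.464 by edgeR), 0.47 ± 0.11 for Esam (adjusted p = 0.286), 0.39 ± 0.14 for Cldn5 (adjusted p = 0.579) and 0.34 ± 0.15 for Cdh5 (adjusted p = 0.704). DESeq2 called 1 of the 9, Esam, at an adjusted p of 0.0225, and edgeR called Esam without KO hypoxia replicate 1 (adjusted p = 0.0125). The broadly expressed genes lay between -0.06 (Jam2) and 0.17 (F11r). Averaged over both genotypes, hypoxia raised Pecam1 (0.67 ± 0.10), Esam (0.50 ± 0.07) and Cdh5 (0.47 ± 0.10; adjusted p = 0.0053, 0.0046 and 0.0329 by edgeR), 3 of 9 against 0.755% of all genes higher and 0.298% lower. The call of Cdh5 was lost without any 1 of the KO normoxia or flox hypoxia replicates, flox normoxia replicate 1 or 2 or KO hypoxia replicate 3 (adjusted p = 0.0592 to 0.0915 by edgeR, log2 fold changes 0.45 to 0.49). It was also lost without the libraries that held Xist and on both RPKM scales (adjusted p = 0.0574 to 0.0807 by edgeR or limma).

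Whether the KO effect differed between oxygen levels was tested as an interaction. None of the 9 genes passed in edgeR, none had an unadjusted p below 0.05, and DESeq2 and limma on log2 RPKM called none, where edgeR called 0% of all genes and 7.26% had an unadjusted p below 0.05. The differences, KO effect in hypoxia minus KO effect in normoxia, ran from -0.19 (Cldn5, 95% interval -0.59 to 0.20) to 0.33 (Marveld2, 95% interval -0.41 to 1.07), and Pecam1 stood at 0.32 (95% interval -0.11 to 0.74). Averaged over both oxygen levels, 8 of the 9 genes were called higher in KO (7.78% of all genes higher and 3.7% lower), from 0.14 ± 0.04 for Tjp1 (adjusted p = 0.017 by edgeR) to 1.43 ± 0.10 for Cldn5 (adjusted p = 2.4e-07 by edgeR), and Marveld2 was not (0.25 ± 0.17, adjusted p = 0.415 by edgeR).

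To set the junction genes against one another free of scaling between libraries, each was divided by Cdh5 in the same library, and the log2 ratios were compared between groups by a two-sided exact permutation test within the other factor (16 tests, adjusted by Benjamini-Hochberg; smallest possible p = 0.0014). Every broadly expressed gene stood lower relative to Cdh5 in KO than in flox brains. The fall was largest for Tjp1, whose log2 ratio was 1.80 ± 0.309 in KO hypoxia and 2.87 ± 0.0284 in flox hypoxia, and 2.31 ± 0.0336 in KO normoxia and 3.26 ± 0.0526 in flox normoxia brains (SD). Its difference of -1.01 had the smallest p that the permutations allow (exact p = 0.0014, adjusted p = 0.00762), as did those of Jam2 (-0.92) and Marveld2 (-0.88). Ocln differed by -0.64 (exact p = 0.00286, adjusted p = 0.00762) and F11r by only -0.26 (exact p = 0.0186, adjusted p = 0.027). Cdh5 itself rose in KO by a log2 fold change of 1.17 averaged over both oxygen levels, and none of the 5 broadly expressed genes was called lower. A gene that rises less than Cdh5, or not at all, falls in this ratio, so these tests largely repeat the rise of Cdh5.

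The restricted genes did not keep a fixed ratio either. Relative to Cdh5 and averaged over both oxygen levels, KO brains had more Cldn5 (0.27, exact p = 0.0186, adjusted p = 0.027) and more Pecam1 (0.15, exact p = 0.0157, adjusted p = 0.027), and less Esam (-0.16, exact p = 0.00857, adjusted p = 0.0171). The Cldn5, Pecam1 and F11r differences each lost the threshold on leaving out some single libraries and without the 4 libraries that held Xist, where fewer arrangements are possible. Between oxygen levels, hypoxia brains had more Pecam1 per Cdh5 (0.20, exact p = 0.00571, adjusted p = 0.0131). Per Cdh5 they had less Tjp1 (-0.45) and Jam2 (-0.44, both exact p = 0.00286, adjusted p = 0.00762) and Ocln (-0.29, exact p = 0.0257, adjusted p = 0.0343). Averaged over both genotypes, Tjp1 and Jam2 themselves were not called (log2 fold changes 0.0055 and 0.0117) while Cdh5 rose by 0.47, so these ratios largely repeat the change of Cdh5. The Ocln ratio lost the threshold without any 1 of flox normoxia replicates 1 and 2, KO normoxia replicates 1 and 3, flox hypoxia replicate 3 and KO hypoxia replicates 1, 3 and 4 (exact permutation test, adjusted p = 0.0533 to 0.114). Without the Xist libraries the Ocln and Pecam1 ratios lost it too (adjusted p = 0.16 and 0.0889 by the same test). Esam (0.04, exact p = 0.446), F11r (-0.17, exact p = 0.0914), Marveld2 (-0.17, exact p = 0.371) and Cldn5 (-0.16, exact p = 0.187) did not pass.

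The log2 ratio of Cldn5 to Cdh5 was 0.77, 0.91, 0.82 and 0.94 in KO hypoxia libraries and 0.81, 0.83 and 0.80 in flox hypoxia. In normoxia it was 1.30, 1.28 and 1.15 in KO and 0.89, 1.00 and 0.38 in flox. The genotypes thus overlapped in hypoxia (means 0.86 in KO and 0.81 in flox) and were apart in normoxia (means 1.25 and 0.76). The 3 KO normoxia libraries lay above every other library, and the lowest value belonged to flox normoxia replicate 3, which held Xist. With all libraries the hypoxia difference in the Cldn5 ratio was -0.16 and did not pass (exact permutation test, p = 0.187). Leaving out that replicate, singled out by its low value, gave -0.26 (same test, adjusted p = 0.0065).

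**Figure D3:**
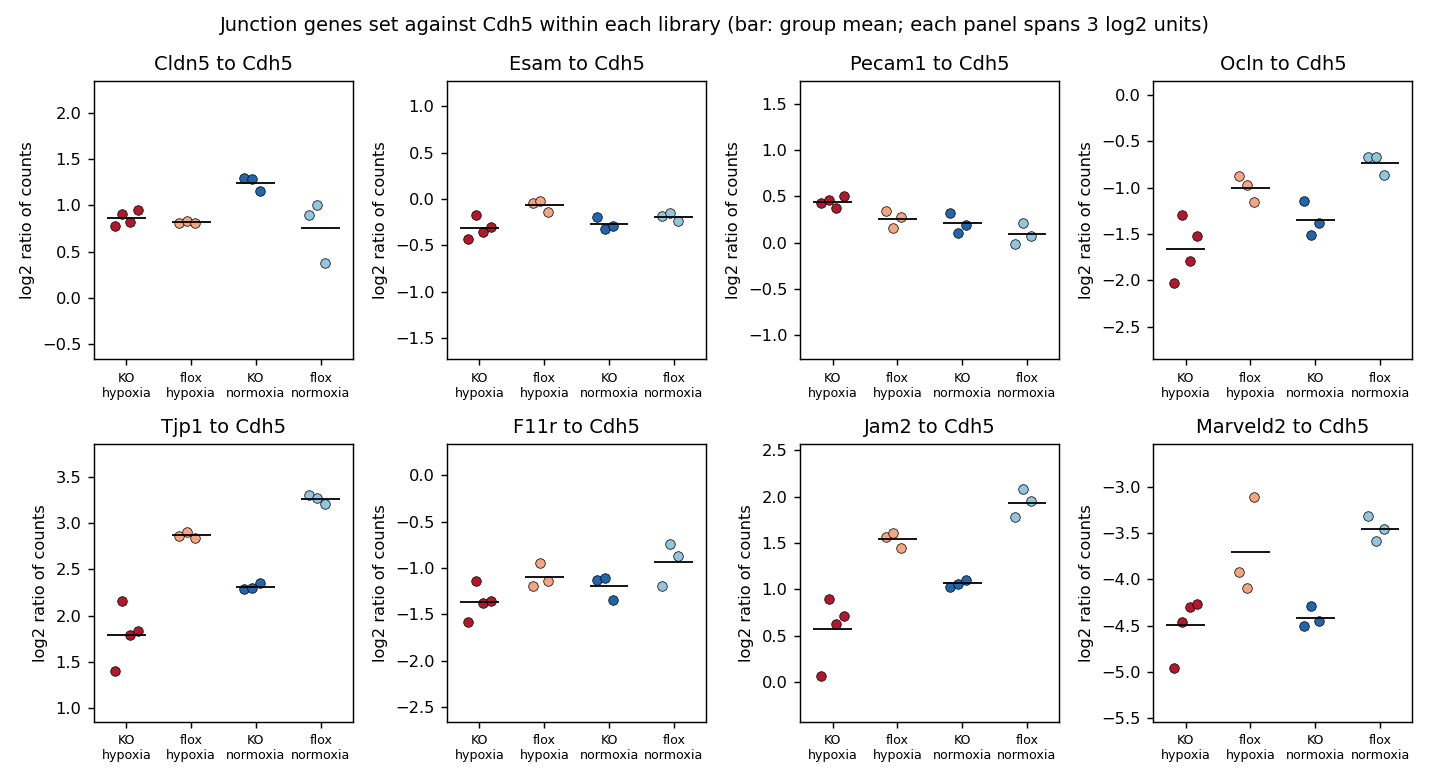
Log2 ratio of each junction gene's CPM to that of Cdh5 in the same library (vertical axis; each panel spans 3 log2 units), by group; points are libraries and bars group means. Tjp1 and Jam2 step down in KO against flox at each oxygen level, and the KO normoxia libraries are the highest for Cldn5, at 1.15 to 1.30.

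In class means, the restricted genes moved further from the broadly expressed genes in KO brains. Single genes did not all follow, since F11r rose in hypoxia about as far as Esam (log2 fold changes 1.00 and 1.03). The mean log2 CPM of the 4 restricted genes minus that of the 5 broadly expressed genes was 1.28 ± 0.235 in KO hypoxia and 0.53 ± 0.065 in flox hypoxia, and 1.01 ± 0.040 in KO normoxia and 0.15 ± 0.077 in flox normoxia libraries (SD). The KO and flox libraries did not overlap at either oxygen level in this difference, which the choice of genes shapes and which was not tested. Other endothelial markers, 15 in all and none among the 9, moved alongside, and their mean log2 CPM was 4.28 ± 0.237 in KO hypoxia and 3.34 ± 0.113 in flox hypoxia, and 3.84 ± 0.113 in KO normoxia and 2.94 ± 0.040 in flox normoxia. In KO against flox, 15 of the 15 were called higher in hypoxia (median log2 fold change 0.91, against 6.78% of all genes tested called higher). In normoxia 12 were (median 0.81, against 1.96% of all genes). Among them was the nitric oxide synthase gene Nos3 (1.51 ± 0.12 in hypoxia and 1.44 ± 0.13 in normoxia, adjusted p = 5.2e-06 and 3.9e-05 by edgeR). The 4 restricted junction genes stood above these markers by 1.20 ± 0.064 log2 CPM in KO hypoxia and 0.88 ± 0.030 in flox hypoxia, and by 1.12 ± 0.075 in KO normoxia and 0.85 ± 0.025 in flox normoxia, without overlap between genotypes. The choice of genes on both sides shapes this offset too, and it was not tested.

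**Figure D4:**
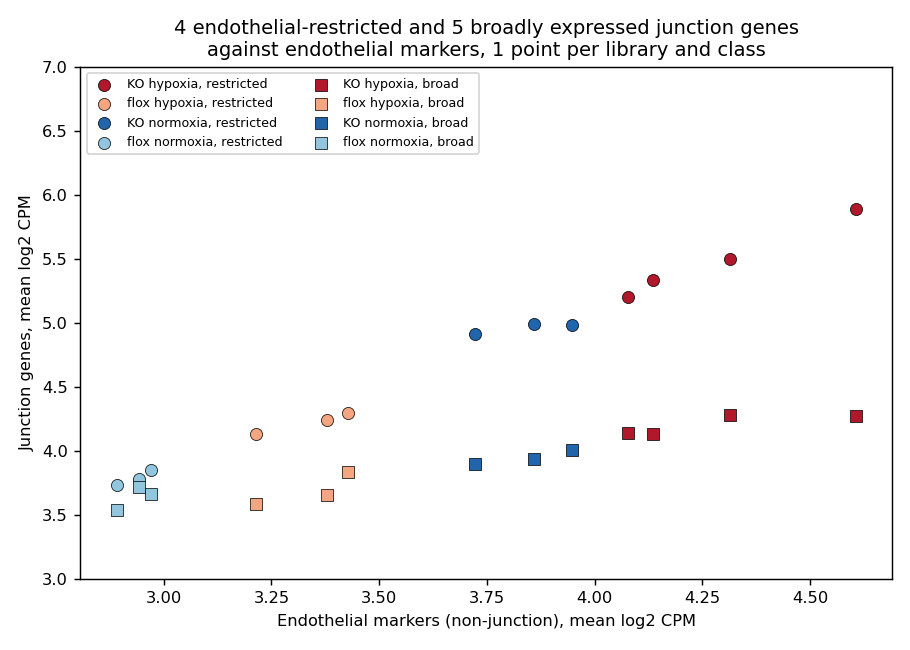
Mean log2 CPM of the 4 endothelial-restricted junction genes (circles) and the 5 broadly expressed ones (squares) on the vertical axis against the mean log2 CPM of 15 other endothelial markers on the horizontal axis, 1 point per library and class, coloured by group. The circles run from 3.73 to 5.88 and the squares from 3.54 to 4.28 as the endothelial markers run from 2.89 to 4.61.

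Markers of some other cells also moved with genotype, where 1.96% of all genes tested were called higher in normoxia and 6.78% in hypoxia. None of 5 neuron markers was called in KO against flox at either oxygen level. Their sums were nevertheless lower in KO without overlap in hypoxia, at 5494 to 5594 CPM in KO and 5819 to 6049 CPM in flox. In normoxia the sums overlapped, at 5741 to 6181 CPM in KO and 5513 to 5853 CPM in flox. Of 5 oligodendrocyte markers, 1 was called lower in normoxia, where 0.369% of all genes were. The 5 pericyte markers were all called higher in KO at both oxygen levels (sums of 352.5 to 467.6 CPM in KO hypoxia and 220.3 to 228.3 CPM in flox hypoxia, and of 302.3 to 330.1 CPM in KO normoxia and 162.3 to 188.1 CPM in flox normoxia). Erythroid markers summed to 3408 to 17390 CPM in KO hypoxia and 448.5 to 670.2 CPM in flox hypoxia, and to 973.4 to 1700 CPM in KO normoxia and 139.2 to 261.1 CPM in flox normoxia. Leptomeningeal markers were called higher in KO for 5 of 7 in hypoxia and 1 of 7 in normoxia (sums of 63.3 to 112.2 CPM in KO hypoxia and 45.2 to 50.6 CPM in flox hypoxia, and of 61.8 to 81.98 CPM in KO normoxia and 56.02 to 59.98 CPM in flox normoxia). Microglial markers were called higher in KO for 4 of 6 in hypoxia and none in normoxia (sums of 314.4 to 390.8 CPM in KO hypoxia and 262.1 to 274.8 CPM in flox hypoxia, and of 299.5 to 312.9 CPM in KO normoxia and 259.4 to 272.8 CPM in flox normoxia). Of 4 astrocyte markers, Aqp4 and Slc1a3 rose in hypoxia (0.52 and 0.35, adjusted p = 0.0018 and 0.00041 by edgeR) and Gja1 fell in normoxia (-0.26, adjusted p = 0.0132 by edgeR), with sums of 1056 to 1195 CPM in KO hypoxia and 885.8 to 921.6 CPM in flox hypoxia. The leptomeningeal and microglial lists thus had more calls higher in hypoxia, as did all genes tested, while all 5 pericyte and all 5 erythroid markers were called at both oxygen levels. Tjp1, Jam2 and Cdh1 were likewise called in hypoxia and not in normoxia. Choroid plexus epithelium also has tight junctions, with occludin and JAM-A, and none of its 9 markers was called in any contrast (median log2 fold change -0.79 for KO in normoxia). KO normoxia replicate 2, far below the rest, widens the spread that all contrasts share. The lack of calls therefore does not show that the choroid plexus part was even. Without KO normoxia replicate 2, the library with few choroid plexus transcripts, the KO effect in normoxia was 0.49 for Ocln, and Marveld2 stood at -0.02. The part of these other cells in the junction gene values was not tested.

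The counts of genes called higher among those whose proteins work with the 9 stand beside 1.96% of all genes in normoxia and 6.78% in hypoxia. Of 21 other claudins, 15 could be tested, and none was called in normoxia and 1 in hypoxia (median log2 fold changes 0.03 and 0.22, beside -0.0036 and -0.0092 for all genes). That 1 was Cldn6, at a level below the naming rule and chosen after its values were seen (0.461 CPM in KO hypoxia and 0.0576 CPM in flox hypoxia). Cldn11, the claudin of myelin, averaged 173.3 CPM in KO hypoxia and 168.0 CPM in flox hypoxia, and was not called (0.04 ± 0.11, adjusted p = 0.862 by edgeR). Of 21 tight junction partners, 2 were called higher in normoxia and 4 in hypoxia, with 1 lower in hypoxia (medians 0.02 and -0.0026). Lsr, which marks 3-cell contacts, rose by 1.34 ± 0.18 in hypoxia and 1.33 ± 0.20 in normoxia (adjusted p = 0.00025 and 0.0016 by edgeR), and Marveld1, a MARVEL-domain relative of occludin, by 0.56 ± 0.08 and 0.44 ± 0.09 (adjusted p = 0.00051 and 0.013). Cgnl1, which encodes the scaffold paracingulin, rose in hypoxia (0.84 ± 0.10, adjusted p = 7.1e-05 by edgeR). The gene that fell was Magi1, a scaffold gene outside the naming rule (-0.17 ± 0.03, adjusted p = 0.004 by edgeR). The most abundant partners not called were Ildr2 and Afdn, within 0.06 of 0 in both KO contrasts.

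Of 16 partners of the adherens junction, 5 were called higher in normoxia and 6 in hypoxia, with none lower (medians 0.06 and 0.15; all genes 1.96% and 6.78% higher). Ptprb, the phosphatase VE-PTP that binds VE-cadherin, rose by 1.03 ± 0.14 in hypoxia and 0.97 ± 0.15 in normoxia (adjusted p = 0.00024 and 0.0024 by edgeR). Heg1, a membrane protein that binds the CCM protein KRIT1, rose by 1.03 ± 0.12 and 0.85 ± 0.13 (adjusted p = 9.1e-05 and 0.0023 by edgeR). Rasip1, a Rap1 effector that is also among the 15 endothelial markers, rose by 0.57 ± 0.11 and 0.68 ± 0.12, and E-cadherin (Cdh1) rose in hypoxia by 1.25 ± 0.23 (adjusted p = 0.0022 by edgeR). The abundant Ctnnb1 (β-catenin) and Cdh2 (N-cadherin) were not called, at 0.13 ± 0.04 (adjusted p = 0.0515 by edgeR) and 0.05 ± 0.04 in hypoxia. Of 11 further endothelial adhesion genes, 1 was called higher in normoxia and 4 in hypoxia (medians 0.14 and 0.24; all genes 1.96% and 6.78% higher): Icam2, an adhesion molecule also among the endothelial markers, rose by 1.89 ± 0.20 in hypoxia and 1.59 ± 0.21 in normoxia (adjusted p = 2.9e-05 and 0.00058 by edgeR), and Cd93 (another of the endothelial markers), Amotl1 and Amotl2 rose in hypoxia by 0.81, 0.58 and 0.24. In hypoxia against normoxia within KO brains, the same lists gave Cgnl1 (0.62 ± 0.10, adjusted p = 0.0133 by edgeR) and Ctnna1, the α-catenin gene (0.29 ± 0.05, adjusted p = 0.0113), and within flox brains none.

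Likeness of profile was taken as Pearson's r of log2 CPM over the 13 libraries, which share the 4 groups, so that r describes mainly the group pattern. Among the 9 genes, the 6 pairs of restricted genes had r from 0.938 to 0.994, with Esam and Pecam1 closest, and the 10 pairs of broadly expressed genes had r from 0.454 to 0.916. The 20 pairs between the classes had r from 0.504 to 0.967, so the classes were not apart in this measure. F11r had r from 0.931 (Cldn5) to 0.967 (Cdh5) with the restricted genes, and Ocln from 0.918 (Cldn5) to 0.948 (Pecam1). Over 11992 genes with a symbol and a mean of at least 2 log2 CPM (11993 for Marveld2), the nearest to Cldn5 was Pltp (r = 0.986), to Cdh5 Clic1 (0.993), to Esam Pecam1 (0.994), to Pecam1 Esam, to Ocln Ccnd3 (0.974), to F11r Pmp22 (0.981), to Tjp1 Arhgap31 (0.922), to Jam2 Elovl5 (0.910) and to Marveld2 Acbd5 (0.873). The haemoglobin gene Hba-a1 was the second nearest to Esam (r = 0.992). With group means removed, r was 0.958 between Cdh5 and Esam, 0.970 between Cdh5 and Clic1 and 0.917 between Esam and Hba-a1. It was lower for other nearest genes, at 0.729 between Jam2 and Elovl5 and 0.778 between Ocln and Ccnd3. These values include KO hypoxia replicate 1, the highest KO hypoxia library for Cdh5 and Esam, and how far they rest on it was not tested.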

How the data were processed

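The authors deposited raw counts per Ensembl gene and RPKM values for the 13 libraries. The submitters' processing notes name HISAT2, edgeR and GRCm39 but give no version and no role. How reads were counted (annotation, strand) is not given in the sources used here. Input was 50 ng of RNA (integrity number over 8) for a stranded kit, per the labels' protocols and the design text. The genes and lists were chosen with earlier results of these data known. Groups and replicate numbers came from the sample titles. No animal is named for a library, so the p-values cover the spread between libraries, which the labels do not tie to single mice. No library repeated another of its group (chi-square over degrees of freedom of at least 4.44).

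Counts were tested with edgeR 4.0.16 (R 4.3.3): filterByExpr over the 4 groups (22507 of 55416 genes kept), TMM, 1 mean per group over all 13 libraries (common dispersion 0.00967), quasi-likelihood F test, Benjamini-Hochberg threshold 0.05. Standard errors came from the F statistic. CPM are TMM-scaled; log2 CPM used a prior count of 0.5. A count of 0 allows up to 3 counts, or 0.0421 to 0.0713 CPM, for counting error only. Named genes were the 9 in every contrast, up to 4 called and 2 uncalled genes per other list (called ones by size of change, at 0 log2 CPM or more on average; uncalled ones by level), and for likeness the nearest by Pearson's r. One gene that this rule names is not reported here. The fit was tested on simulated data. Alternatives were DESeq2 1.42.0, limma 3.58.1 on the deposited RPKM (pseudocounts 1 and 0.1), other scalings and filters, a replicate block, a sex term, only the libraries compared, and leaving out libraries. Symbols were found for 52083 identifiers. The reference annotation is another build than the authors', so coordinates are given only for the RefSeq promoter windows.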

Additional observations from a re-analysis of the deposited data

Results flagged for a closer look

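Sums of marker genes in KO hypoxia for 3 cell types had 1 library far from the other 3, by the gap to its nearest neighbour as a share of the group's range, where values above 0.829 stand out. Chance gives such a gap in about 1 of 20 sets of 4 values. The 29 sets looked at were 29 measures of the same 4 KO hypoxia libraries, so they are not independent of one another. For erythroid markers the share was 0.946 (replicate 1 at 17390 CPM, the others at 3408 to 4164 CPM), and for leukocyte markers 0.85 (replicate 1 at 47.9 CPM, the others at 20.9 to 24.98 CPM). Replicate 1 was also the highest KO hypoxia library for Cldn5, Cdh5, Esam, Pecam1, F11r, Ocln and Tjp1 (by CPM), and without it all of these but Tjp1 (adjusted p = 0.0627 by edgeR) were still called higher in KO than in flox in hypoxia. For oligodendrocyte markers the share was 0.852 (replicate 2 at 3813 CPM, the others at 4509 to 4630 CPM). None of the 9 junction genes stood out in this way in KO hypoxia.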

How the results depend on the processing

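The counts of junction genes called higher in KO held across all alternatives to within 2 genes: 5 to 6 in normoxia (6 as reported), 6 to 8 in hypoxia (8) and 7 to 8 for the mean over oxygen levels (8), and none was called lower. The counts for hypoxia did not hold. In KO brains 3 genes were called, 4 with no filter and with DESeq2 (F11r in addition), 1 with log2(RPKM + 1), 0 with only the libraries compared, 0 without the libraries that held Xist, and 0 to 3 on leaving out 1 library. In flox brains 0 were called, 3 with no filter, 1 with DESeq2, 1 with only the libraries compared, and 0 to 1 on leaving out 1 library (1 without KO hypoxia replicate 1). For the mean over genotypes 3 were called, 5 with no filter and 2 to 3 on leaving out 1 library. The cause was not tested. Same-numbered libraries deviated from their group means with r between -0.015 and 0.133 over 18 pairs, 1 above 0.1, so the numbers were not taken to pair samples, and a replicate block left the counts at 6, 8, 8, 3, 0 and 3. Signs turned only where the change was close to 0 or the gene scarce. On leaving out 1 library, Marveld2 ran from -0.019 to 0.148 for KO in normoxia and from -0.25 to 0.38 for hypoxia in flox, Jam2 from -0.16 to 0.0017 for hypoxia in flox and from -0.043 to 0.041 for the mean over genotypes, Tjp1 from -0.011 to 0.031 for that mean, and the Esam interaction from -0.064 to 0.130. Jam2 for hypoxia in flox stood at 3e-04 without the libraries that held Xist, and Tjp1 for the mean over genotypes at -1e-04 with no filter. Of the recomputed ratios to Cdh5, 207 kept direction and side of the threshold, 30 lost the threshold, 3 gained it and none turned. Counts over all genes moved more: genes higher in KO in normoxia numbered 441, but 740 with no filter, 664 with DESeq2, 294 and 212 with log2(RPKM + 0.1) and log2(RPKM + 1) and 239 without the Xist libraries, and genes higher in hypoxia in KO numbered 140, but 602, 475, 39, 43 and 63, and 28 with only the libraries compared. On leaving out 1 library the first count was 216 without flox normoxia replicate 1, 235 and 269 without KO normoxia replicates 1 and 2, and 306 to 610 otherwise. The second was 2 to 19 on leaving out 1 KO normoxia replicate, 70 to 83 on leaving out 1 flox hypoxia replicate, 88, 384 and 79 without KO hypoxia replicates 1, 2 and 3, and 114 to 190 otherwise, and the shares of all genes given for these contrasts move with them. Marveld2 held 40 to 136 counts per library. Its SD was 44.9% of the mean CPM in flox hypoxia and between 9.9% and 15.3% in the other groups. How far sequencing depth limits its values was not tested.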
